A study of Homo sapiens with 4 samples.

Results

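The acyl-CoA synthetase genes described here are ACSL1, ACSL3, ACSL4, ACSL5 and ACSL6 for long-chain fatty acids, ACSM1, ACSM3 and ACSF2 for medium-chain fatty acids, and ACSS1 and ACSS2 for acetate. Their open chromatin was taken as every region of the deposited accessibility table that overlapped the RefSeq span of a gene extended by 10 kb on both sides. This gave 53 of the 125986 listed regions, and all 10 genes had at least 3. ACSM1 and ACSM3 overlap on chromosome 16, and the 3 regions of ACSM1 are also regions of ACSM3 and were counted once in totals. The assay was ATAC-seq: the transposase Tn5 inserts sequencing tags where DNA is not packed away, and the number of reads in a region reports how open it is. The cells were A375, an established human melanoma line grown in DMEM with serum. Octanoate, a medium-chain fatty acid, was given at 1 mM for 48 h in 2 libraries, and the vehicle isopropanol for the same time in 2 libraries. Nothing in the labels says whether the 2 libraries of a group came from separate cultures. The p-values therefore cannot be read as measuring the spread between cultures. All results rest on 1 cell line.

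A free fatty acid is chemically inert in the cell until it is joined to coenzyme A, and acyl-CoA synthetases carry out this step with ATP. The enzymes differ by chain length and place: the ACSL enzymes sit in membranes of the endoplasmic reticulum, mitochondria and lipid droplets, and the ACSM enzymes and ACSF2 work in mitochondria. Medium-chain acids such as octanoate can enter mitochondria without the carnitine shuttle and be activated inside. ACSS2 makes acetyl-CoA from acetate in the cytosol and nucleus, where it can serve histone acetylation, and ACSS1 does the same reaction in mitochondria.

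The starts of these genes were compared first, because the table shows which of them lay in open chromatin in A375 cells. RefSeq start windows, 300 bases long and running from 250 bases before a transcription start to 50 bases after it, were listed for 9 of the 10 genes (22 windows, GRCh38.p14). A listed region overlapped 11 of the 22 windows, in 6 genes: ACSL1, ACSL3, ACSL4, ACSL6, ACSS1 and ACSS2. Over all protein-coding genes 66.7% of 22199 windows overlapped a listed region. The windows of ACSL5 (2 windows), ACSM1 and ACSF2 overlapped none, and ACSM3 had no window in the table of starts. Some windows overlap each other, as those at the upstream starts of ACSL6 do, so they are not independent.

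Open starts were richer in CG dinucleotides. The 11 open windows held a median of 31 CG dinucleotides, against 5 in the 11 others, and over all protein-coding genes the medians were 27 and 5. All 6 member windows with at least 30 CG dinucleotides were open, as were 92.6% of such windows over all genes. The order had exceptions: 2 ACSL1 windows with 4 and 5 CG dinucleotides overlapped weak regions and the internal ACSS1 window with 11 a strong one, while 2 windows with 15 were not open, 1 at ACSL6 and 1 at ACSF2. The 250 bases before the start are printed for 6 windows that show this contrast: CG-rich open starts (ACSL4, ACSL1, ACSS2), an open internal start with few CG dinucleotides (ACSS1), and starts with no listed region (ACSM1, ACSL5). They lie at chrX:109733258-109733507 (ACSL4, minus strand), chr4:184825969-184826218 (ACSL1, minus), chr20:34876362-34876611 (ACSS2, plus), chr20:25032707-25032956 (ACSS1, minus), chr16:20691257-20691506 (ACSM1, minus) and chr10:112375018-112375267 (ACSL5, plus), all in GRCh38.p14 and read 5′ to 3′ in the gene's direction. Capitals mark letters that match one of the searched motifs on either strand.
ACSL4: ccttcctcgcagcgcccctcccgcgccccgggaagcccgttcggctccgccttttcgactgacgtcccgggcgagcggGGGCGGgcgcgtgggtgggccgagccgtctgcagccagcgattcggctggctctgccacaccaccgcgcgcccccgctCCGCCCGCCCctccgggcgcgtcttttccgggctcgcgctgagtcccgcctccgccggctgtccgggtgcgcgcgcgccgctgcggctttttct
ACSL1: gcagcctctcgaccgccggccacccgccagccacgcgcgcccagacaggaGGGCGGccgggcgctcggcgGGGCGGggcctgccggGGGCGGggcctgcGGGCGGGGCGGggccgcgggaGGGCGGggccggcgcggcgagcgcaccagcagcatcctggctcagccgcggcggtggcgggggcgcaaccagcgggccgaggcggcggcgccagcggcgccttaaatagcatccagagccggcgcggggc
ACSS2: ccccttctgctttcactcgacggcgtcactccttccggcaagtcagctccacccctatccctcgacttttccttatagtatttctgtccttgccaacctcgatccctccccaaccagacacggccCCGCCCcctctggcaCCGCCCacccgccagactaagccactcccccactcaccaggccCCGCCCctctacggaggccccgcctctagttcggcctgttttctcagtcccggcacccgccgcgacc
ACSS1: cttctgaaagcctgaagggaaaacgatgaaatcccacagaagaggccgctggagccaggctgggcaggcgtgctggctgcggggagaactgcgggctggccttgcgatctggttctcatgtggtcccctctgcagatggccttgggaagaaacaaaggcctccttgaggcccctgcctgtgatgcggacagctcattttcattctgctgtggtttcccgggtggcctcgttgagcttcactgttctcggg
ACSM1: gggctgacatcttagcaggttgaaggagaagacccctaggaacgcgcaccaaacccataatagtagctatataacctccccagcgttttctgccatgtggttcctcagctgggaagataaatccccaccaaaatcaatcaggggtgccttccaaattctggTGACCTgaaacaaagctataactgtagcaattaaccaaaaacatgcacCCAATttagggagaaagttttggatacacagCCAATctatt
ACSL5: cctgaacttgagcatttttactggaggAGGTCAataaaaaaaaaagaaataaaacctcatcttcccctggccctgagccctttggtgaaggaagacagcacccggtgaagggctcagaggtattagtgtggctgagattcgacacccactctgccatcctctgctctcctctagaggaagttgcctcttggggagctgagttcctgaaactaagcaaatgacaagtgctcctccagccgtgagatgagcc

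**Figure D1:**
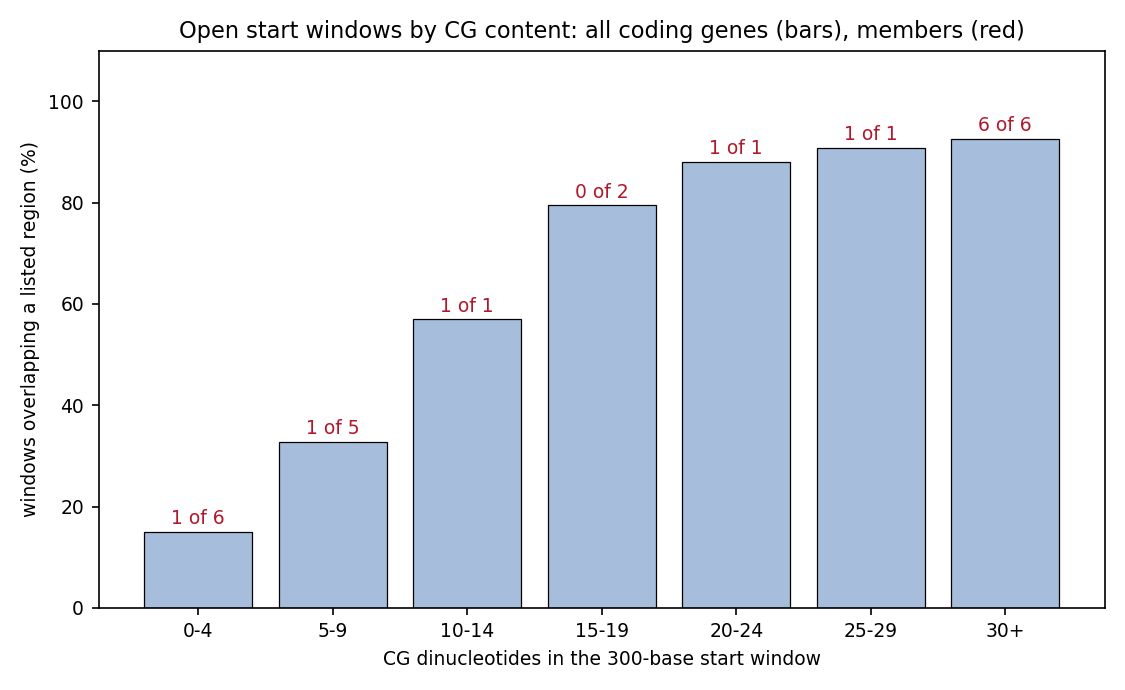
Bars give the percentage of 300-base start windows of protein-coding genes that overlapped a listed region (vertical axis), by their number of CG dinucleotides (horizontal axis), and red text gives the same count for the windows of the acyl-CoA synthetase genes. The percentage ran from 15.03% at 0 to 4 CG dinucleotides to 92.6% at 30 or more, and the member windows ran from 1 of 6 to 6 of 6.

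Motif letters in the windows were as follows. The GC box GGGCGG, bound by SP factors, was in 9 of the 11 open member windows and 2 of the 11 others, and over all genes in 71.4% of open and 25.9% of other windows. ACSL1 held 6 copies before its first start and ACSS1 4 before its first start. ACSL3, ACSL4 and the open ACSS2 start held 3 each. The nuclear receptor element AGGTCA was in 4 member windows (ACSL5, ACSM1 and 2 overlapping ACSL6 windows), none of them open, and in 11.9% of all windows. Over all genes it was also rarer in open windows, at 9.07% against 17.5% of other windows. No member window held 2 copies of it in direct repeat with 1 base between them, the form bound by PPAR with RXR, and 5 of all 22199 windows did. The sterol regulatory element letters TCACNCCAC were in 1 weakly open ACSL1 window and in 1 ACSL6 window that was not open, against 1.13% of all windows. The letters CCAAT were in 4 member windows, those of ACSL3, ACSL1, ACSM1 and ACSS2, and in 34.7% of all windows. The E-box CACGTG was in the ACSF2 window (8.34% of all windows), the AP-1 letters TGANTCA in 1 ACSL1 window (6.15%), and the cyclic AMP response element TGACGTCA in none (2.26%). Both strands were searched, and matches to different motifs overlapped 0 times in the 22 windows, while GC boxes can overlap each other. These are letter matches and not binding sites.

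Levels are given as the deposited mean of normalized reads over all 4 libraries, since the table has no value for a single library. The strongest start regions per length were those of the acetate enzymes. The internal ACSS1 start (chromosome 20, 25032127 to 25033361) had a mean of 128 normalized reads, or 103 per kb, and lay above 92.1% of the 11091 regions at coding starts in reads per kb. The ACSS2 start region (chromosome 20, 34875922 to 34876959) followed with a mean of 104, or 100.4 per kb, above 91.1% of them. Both thus had more reads per kb than the upstream ACSS1 start (chromosome 20, 25057083 to 25058660), at 69.8 normalized reads and 44.2 per kb. The ACSS2 start region overlapped only the downstream ACSS2 window. The upstream ACSS2 window held no listed region, the nearest lying 352 bp away. No interval exists for these levels, because neither reads nor levels per library are in the table.

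Among the long-chain enzymes, the start of ACSL3, which acts at the endoplasmic reticulum and lipid droplets, lay in the widest region, 2767 bp (chromosome 2, 222859791 to 222862557). It had a mean of 124 normalized reads, or 44.8 per kb. ACSL1, the main long-chain enzyme of liver and fat, had a first-start region with a mean of 95.4, or 58.3 per kb (chromosome 4, 184824983 to 184826619). ACSL4, which prefers arachidonate and is known for its part in ferroptosis, had 45.1, or 64.2 per kb (chromosome X, 109733003 to 109733705). ACSL6, an enzyme of brain, had a weak start region of 22.7 normalized reads or 45.1 per kb (chromosome 5, 132011463 to 132011966). In reads per kb these 4 start regions ranged from above 39.5% to above 65.7% of the start regions of coding genes. The strongest ACSL6 region lay inside the gene, 10.1 kb downstream of its first start (chromosome 5, 132001694 to 132002502), with a mean of 32.3 and a deposited log2 fold change of 0.12 (standard error 0.39).

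No medium-chain gene had a listed region at a start window of its own, and ACSM3 had no window to look up. ACSM1, a mitochondrial enzyme for short and medium chains, had only regions with means of 2.95, 6.18 and 8.08, the last at 0.50 on the log2 scale (standard error 0.77), and the nearest lay 140 bp from its start window. The ACSF2 window that held no region lies 42.1 kb inside the RefSeq span, so it does not speak for the upstream end of the gene. A region at that end, where the span begins, had a mean of 19.5 and a log2 fold change of -0.03 with a standard error of 0.47 (chromosome 17, 50425708 to 50426435). ACSM3 held regions with means of 38.3 and 28.3 inside its span, with log2 fold changes of 0.38 (standard error 0.34) and 0.59 (standard error 0.40) in the authors' deposited table. The strongest regions counted with ACSM3 and ACSF2 overlapped start windows of other genes: THUMPD1 inside ACSM3 (mean 96.7), REXO5 beyond the end of ACSM3 (mean 108), and RSAD1 beside ACSF2 (mean 69.3). Of the 53 regions, 9 overlapped a start window of their own gene, 4 one of another coding gene (the fourth at GGT7 beside ACSS2), and 40 no coding start window. Whether these regions lie in exons or introns was not analysed here.

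**Figure D2:**
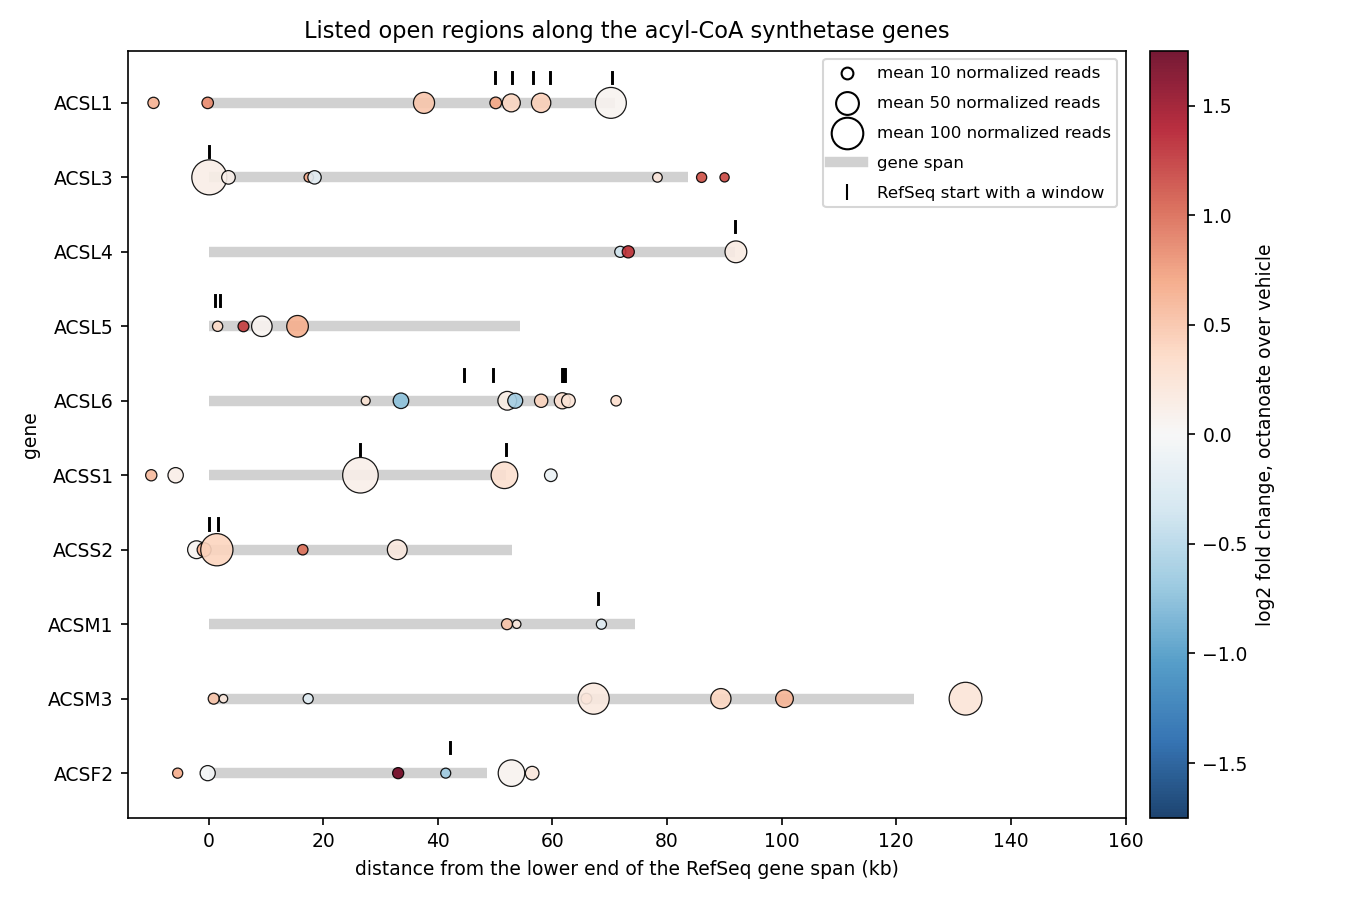
Each circle is a listed region, placed by its distance in kb from the lower end of the RefSeq span of its gene (grey bar), with its area growing with the mean normalized reads and its colour giving the log2 fold change of octanoate over vehicle; ticks mark RefSeq starts that have a window. Large circles sit at the starts of ACSL1, ACSL3, ACSS1 and ACSS2, and no circle at ACSM1 exceeds a mean of 8.08.

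The comparison of octanoate with vehicle asked where chromatin opens or closes when cells are fed this fatty acid. None of the acyl-CoA synthetase regions passed the authors' test. The authors' deposited table gave an adjusted p to 8 of the 53 regions, all with means above the lowest tested mean of 63.8. By that DESeq2 test with Benjamini-Hochberg adjustment, 0 of the 8 passed an adjusted p of 0.05. Over all 11185 tested regions 1.02% did. At an unadjusted p under 0.05 the count was also 0 of 8, against 14.9% of all tested regions. The other 45 regions were not tested by the authors, and are not read as unchanged.

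All 8 tested regions had a log2 fold change above 0, as did 85.7% of all tested nuclear regions. The 8 values ran from 0.05 to 0.38, but 5 of the 8 were below the median of all tested regions, 0.19. Changes are compared to that median because most of the table lay above 0. The region closest to the threshold was the ACSS2 start, at 0.38 on the log2 scale (standard error 0.21, unadjusted p 0.0672, adjusted p 0.375) in the authors' deposited table. The mean and fold change together imply levels of 90.5 normalized reads with vehicle and 118 with octanoate, a 1.30-fold ratio with a 95% interval of -0.03 to 0.79 on the log2 scale. This start thus spans both no change and a clear rise, and its log2 fold change was above that of 89.2% of coding start regions.

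The other acetate gene gave smaller values in the authors' deposited table. The upstream ACSS1 start stood at 0.27 on the log2 scale (standard error 0.26, adjusted p 0.643), and its internal start at 0.10 (standard error 0.18, adjusted p 0.827). Implied levels at the internal start were 123 with vehicle and 132 with octanoate. Its interval, -0.26 to 0.47, held 0 and the tested median alike.

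The tested long-chain starts, 1 each at ACSL1 and ACSL3, had small values. The log2 fold change was 0.05 at the first start of ACSL1 (standard error 0.21, adjusted p 0.931) and 0.12 at ACSL3 (standard error 0.19, adjusted p 0.814) in the authors' deposited table. Implied levels were 93.6 with vehicle and 97.2 with octanoate at ACSL1, and 119 and 129 at ACSL3. The upper bounds of their 95% intervals were 0.47 and 0.49, so a doubling lay outside both. The remaining tested regions, at the starts of THUMPD1, REXO5 and RSAD1, had deposited log2 fold changes of 0.17, 0.22 and 0.06, with adjusted p of 0.742, 0.630 and 0.935. For all 8 tested regions the interval ended below a doubling, the highest upper bound being 0.79. Of the 28 pairs of tested regions, 0 had intervals that did not overlap. This had to be so with values from 0.05 to 0.38 and standard errors from 0.18 to 0.26, so nothing is concluded from it.

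Start regions of the members can be set beside those of other genes. For the 9 regions at own start windows the median log2 fold change was 0.27, while for all 11091 regions at coding starts it was 0.14 in the authors' deposited table. Of the 9, 6 lay above that value and 3 below. The highest value was at a weak region and the next at the strong ACSS2 start described above: the 2 internal ACSL1 starts, with means of 9.66 and 29.3, had log2 fold changes of 0.68 (standard error 0.69) and 0.37 (standard error 0.39), and the ACSL6 start had 0.30 (standard error 0.45). Taking 1 value per gene, its strongest start region, gave 0.13, close to the value over all coding starts. The ACSL4 start, at 0.15 (standard error 0.31), lay near the middle of them.

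**Figure D3:**
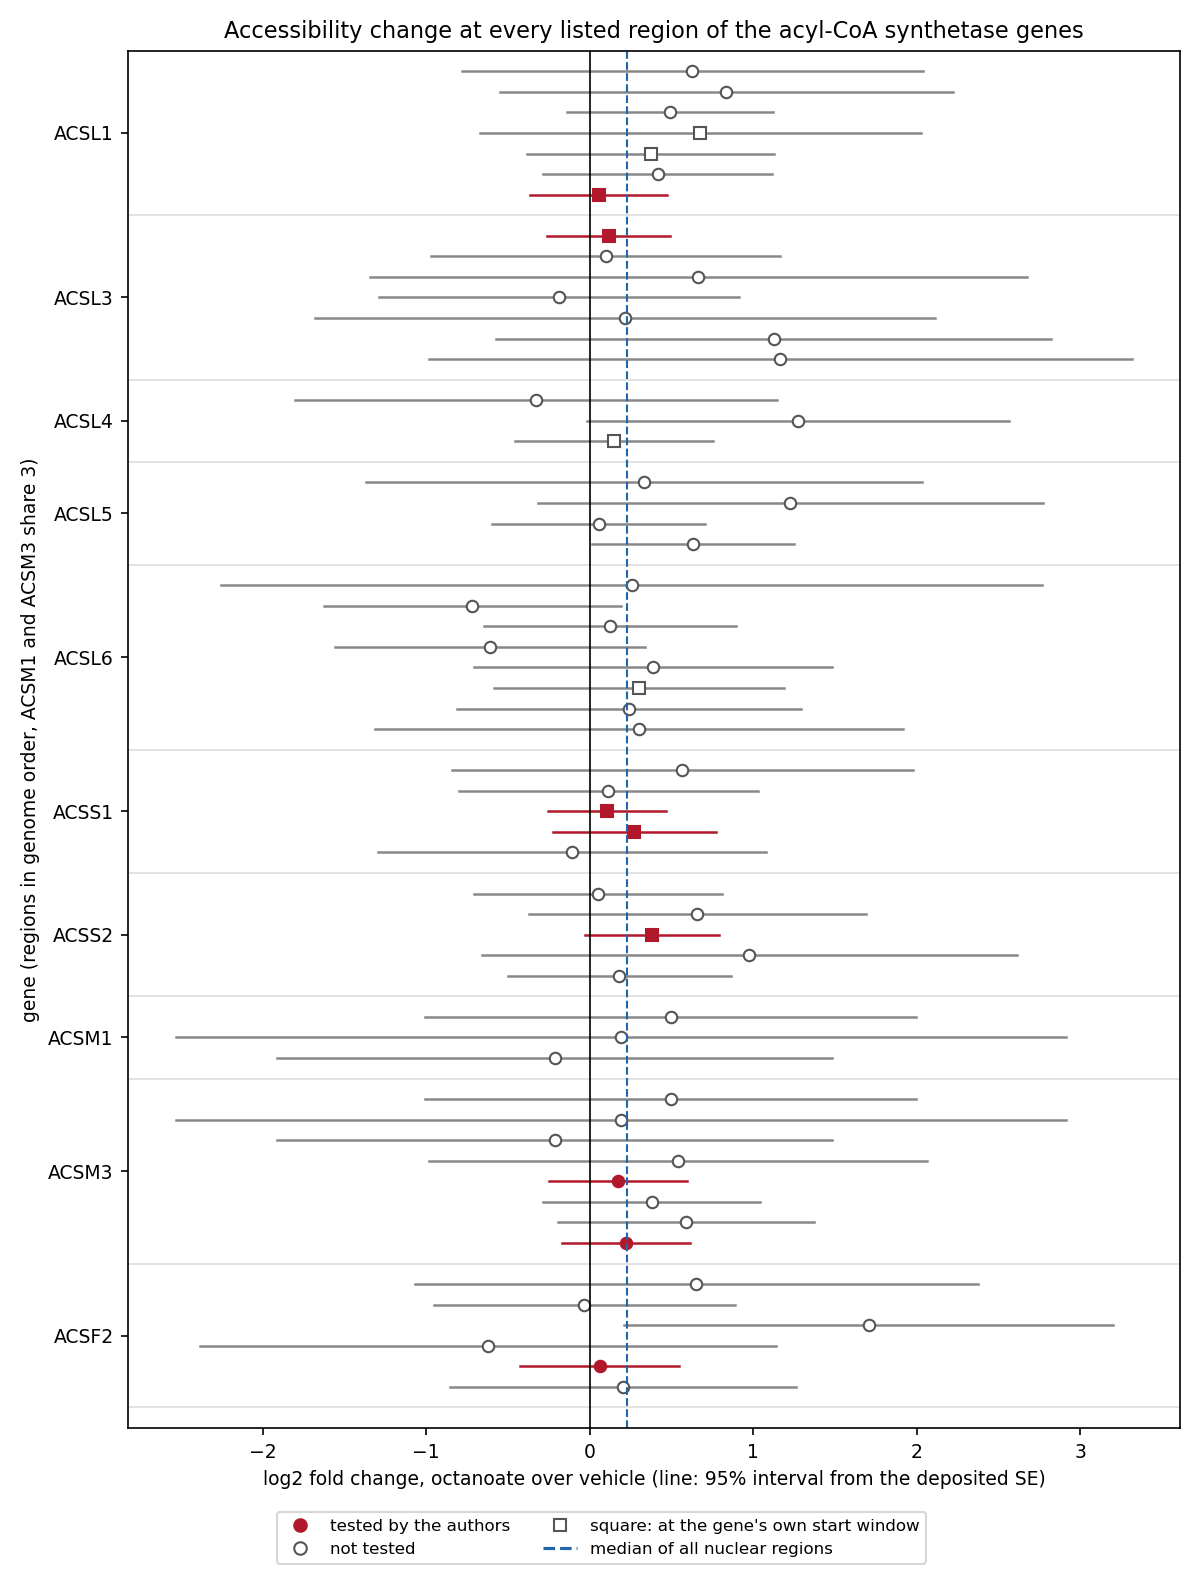
Each row is 1 region, ordered along the genome within its gene, with its log2 fold change of octanoate over vehicle (horizontal axis) and the 95% interval from the deposited standard error; filled red marks are tested regions, squares are regions at the gene's own start, and the dashed line is the median of all nuclear regions, 0.23. All 8 tested regions lie from 0.05 to 0.38, and 51 of the 53 intervals include 0.

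The 40 regions at no coding start window were weak, with a median of 10.1 normalized reads, and none was tested. Their median log2 fold change was 0.36, against 0.25 over the 114894 nuclear regions at no coding start, and 80.0% against 71.7% were above 0 in the authors' deposited table. Over all 53 regions the median log2 fold change was 0.27, against 0.23 over all 125985 nuclear regions, and 45 of the 53 (84.9%) were above 0, against 72.1% of all nuclear regions. Only 29 of the 53 were above the median of all nuclear regions. At an unadjusted p under 0.05, 2 of the 53 regions (3.77%) were higher, against 3.58% of all listed regions, and 0 were lower (0.179% of all). The share of higher calls is near that background, and neither region was tested for an adjusted p.

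The larger of these was a weak region inside ACSF2, a mitochondrial medium-chain acyl-CoA ligase (chromosome 17, 50459154 to 50459454). Its mean was 8.45 normalized reads and its log2 fold change 1.71 (standard error 0.76, unadjusted p 0.0252) in the authors' deposited table. Implied levels were 3.96 with vehicle and 12.9 with octanoate, so the change rests on few reads. The next listed region along the gene had the opposite sign, -0.62 (standard error 0.90), with a mean of 5.89. The ACSF2 regions together had a median of 0.13, below that of all nuclear regions.

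The second call lay inside ACSL5, a long-chain enzyme of the intestine that sits on mitochondria and the endoplasmic reticulum (chromosome 10, 112389271 to 112390026). It had a mean of 44.5 and a log2 fold change of 0.63 (standard error 0.32, unadjusted p 0.0458) in the authors' deposited table, with implied levels of 35.0 with vehicle and 54.1 with octanoate. Its neighbour in the same gene, of similar strength (mean 39.4), had 0.05 (standard error 0.33). The 95% intervals of these 2 stronger ACSL5 regions, 0.01 to 1.25 and -0.60 to 0.71, overlapped widely, and their difference was not tested. Both lay downstream of the 2 ACSL5 start windows, which held no listed region. A weak region between these windows, 267 and 130 bp from them, had a mean of 6.44 and a log2 fold change of 0.33 (standard error 0.87).

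Both calls depended on where 0 was placed. After the median of the tested regions was subtracted, the ACSF2 region kept an unadjusted p under 0.05 (0.0462) and ACSL5 did not (0.160). After the median of all nuclear regions was subtracted, neither did (0.0527 and 0.204), though the ACSF2 log2 fold change was still 1.48, and 1 lower region passed. This was inside ACSL6 (chromosome 5, 131983247 to 131983851), with a mean of 20.7 and a deposited log2 fold change of -0.72 (standard error 0.46, unadjusted p 0.121). Its centred log2 fold change was -0.95 with an unadjusted p of 0.0407. A second ACSL6 region with a value below 0, at -0.61 (standard error 0.48), overlapped a start window of the antisense transcript ACSL6-AS1.

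By gene, ACSL1 had the highest median, 0.49 over 7 regions, all of them above 0 and 6 of them above the median of all nuclear regions. Its strongest region, the first start, had the lowest value of the 7. The ACSL5 median was 0.48 over 4 regions and the ACSS2 median 0.38 over 5. ACSM3 had 0.30 over 8 regions, ACSL6 0.25 over 8, ACSL3 0.22 over 7, ACSM1 0.19 over 3, ACSL4 0.15 over 3 and ACSS1 0.12 over 5. After the median of all nuclear regions was subtracted, the medians of ACSL3, ACSL4, ACSS1, ACSM1 and ACSF2 were below 0, and those of ACSL1, ACSL5, ACSS2, ACSM3 and ACSL6 were still above it. This subtracts the same constant from every gene.

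ACSL4 and ACSL3 held other weak regions with large values. An ACSL4 region 18.7 kb downstream of its start (chromosome X, 109714366 to 109714778) had a log2 fold change of 1.27 (standard error 0.66, unadjusted p 0.0533) and a mean of 10.9. Just beside it, a region with a mean of 8.33 had -0.33 (standard error 0.75). A pair of regions beyond the end of ACSL3 had 1.12 (standard error 0.87) and 1.17 (standard error 1.10), with means of 6.34 and 4.43. In all, 5 of the 53 regions at least doubled by their point value, each with a mean of at most 10.9, and 0 were at least halved. Over all nuclear regions 6.02% were at least doubled and 1.64% at least halved. Up to a mean of 10.9 the 5 were among 22 member regions, and 10.7% of 57262 nuclear regions there were at least doubled and 3.33% at least halved. That limit is the mean of one of the 5, so this comparison was set after the values were seen.

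Precision followed depth. Among the 53 regions the deposited standard error fell with the mean (Spearman correlation -0.999 across regions, a description). A log2 fold change of 0.36 at the most precise region, 1.06 at the median region and 2.72 at the least precise would have been needed for an unadjusted p of 0.05. At 29 of the 53 regions this change exceeded a doubling, so smaller changes were not detectable there. The 21 regions with a mean under 10 had a median log2 fold change of 0.57, against 0.27 over the 52739 nuclear regions of like mean. At a mean of 10 to under 25 the members were lower, 0.12 in 13 regions against 0.23. From 25 to the lowest tested mean they were higher, 0.37 in 11 regions against 0.21, and in tested regions lower again, 0.14 in 8 against 0.19. The members thus showed no steady order against regions of like mean.

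**Figure D4:**
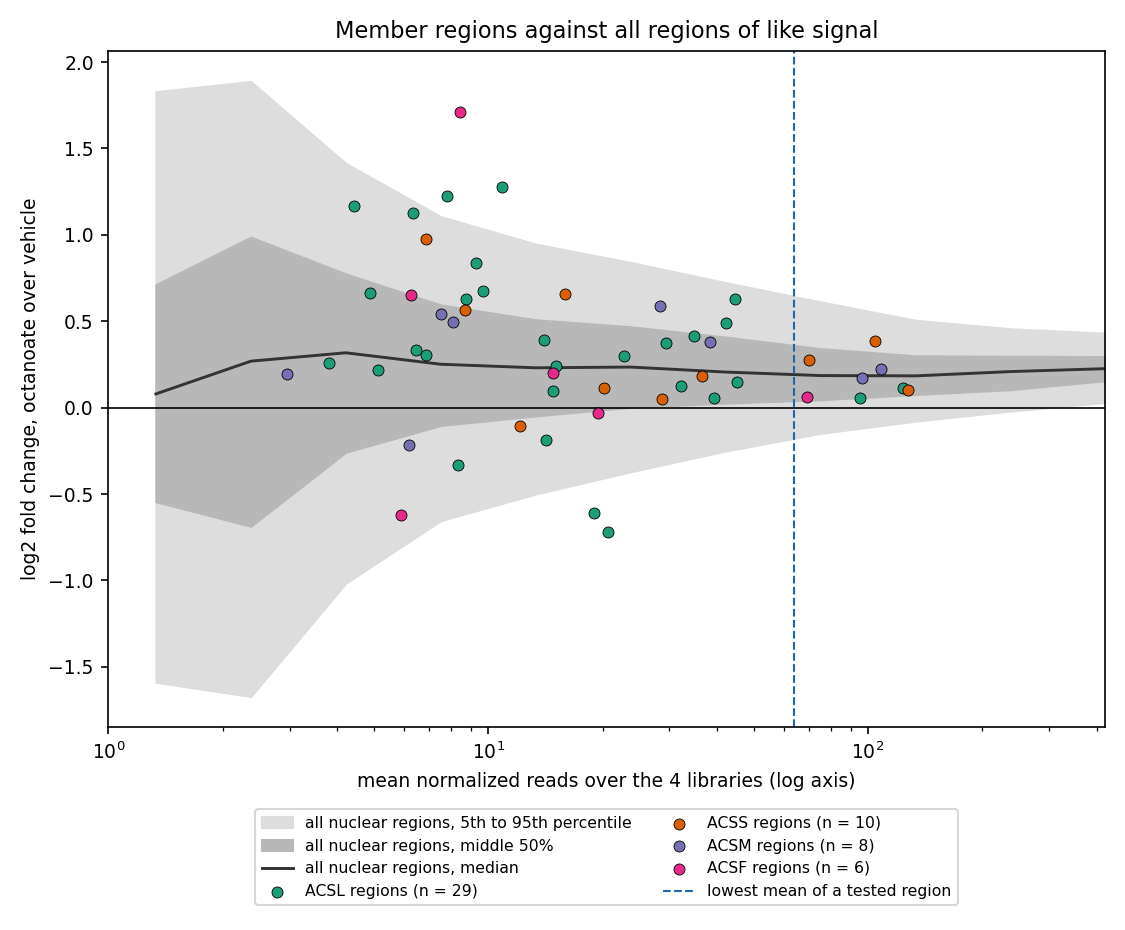
Points are the 53 regions by mean normalized reads (horizontal, log axis) and log2 fold change of octanoate over vehicle (vertical), coloured by family, over grey bands with the middle 50% and the 5th to 95th percentile of all nuclear regions in bins of the mean that hold at least 100 regions. Right of the dashed line at 63.8, the lowest mean of a tested region, the 8 points stay between 0.05 and 0.38, and at a mean under 10 they range from -0.62 to 1.71.

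Other genes that make, carry or use acyl-CoA were described in the same way, with 5 lists. Of their regions 44 were tested, and 0 had an adjusted p under 0.05 in the authors' deposited table. The counts at an unadjusted p under 0.05 in these lists stand beside 3.58% higher and 0.179% lower over all listed regions, and 14.9% over tested regions. The 16 other acyl-CoA synthetases, among them the SLC27A transport proteins, had 63 regions (median log2 fold change 0.15) and 0 at an unadjusted p under 0.05, the 6 tested regions included. Of the 13 genes with a start window 7 had an open one, beside 6 of 9 members and 71.7% of the 15843 coding genes with a window. Among the tested regions of this list, the lowest unadjusted p was at the start of AACS, which activates acetoacetate in the cytosol (log2 fold change 0.40, standard error 0.22, adjusted p 0.382). SLC27A3 followed, with 0.40 (standard error 0.25, adjusted p 0.466).

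The carnitine shuttle and mitochondrial beta-oxidation list, the route that acyl-CoA takes to be burned, had 22 genes, and 17 of the 19 with a start window had an open one, beside the 71.7% of coding genes. Its 55 regions had a median of 0.24. At an unadjusted p under 0.05, 3 of the 55 (5.45%) were higher, among them 2 of 15 tested regions, near the 14.9% over all tested regions. The tested pair was counted with ETFB, a subunit of the electron transfer flavoprotein (log2 fold change 0.50, standard error 0.22, adjusted p 0.236), and CROT, the carnitine transferase for octanoyl-CoA (0.33, standard error 0.15, adjusted p 0.278). The CROT start has that fold change over a mean of 197 normalized reads, more than any acyl-CoA synthetase region. The same region also overlapped a start window of TP53TG1.

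Among acyl-CoA thioesterases, which undo the activation step, 48 regions had a median of 0.25. At an unadjusted p under 0.05, 3 of the 48 (6.25%) were higher, beside 3.58% of all regions, and 0 lower, and 0 of the 12 tested regions were among them, beside 14.9%. ACOT7 had 0.34 at its start (standard error 0.18, adjusted p 0.355), and a tested region counted with ACOT12, also at 0.34 (standard error 0.18, adjusted p 0.372), overlapped the start of ZCCHC9. For fatty acid uptake and binding, 38 regions gave a median of 0.14, with 0 of the 38 at an unadjusted p under 0.05, the 5 tested regions included. FABP6 had 0.26 (adjusted p 0.687) and CAV1 0.17 (adjusted p 0.693). For acetyl-CoA supply and histone acetyltransferases, the median over 39 regions was 0.17, and 2 of the 39 (5.13%, beside 3.58%) were higher at that p and 0 of the 6 tested. Its named genes were PDHB, at 0.29 (adjusted p 0.525), and PDHA1, at 0.30 (adjusted p 0.548). The 5 list medians ran from 0.14 to 0.25, beside 0.27 for the members and 0.23 for all nuclear regions.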

How the data were processed

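The authors compared ATAC-seq libraries of A375 cells, 2 with octanoate and 2 with vehicle, in 1 results table. Per the submitters' processing notes, Trim Galore, cutadapt, FastQC, Bowtie2, Picard, MACS2, featureCounts, DESeq2 and bedtools 2.29.1 were used with build hg38. How regions were merged, and any shift for the Tn5 cut, are not given in the sources used here. Per the file headers, the deposited signal is the mean normalized read count over all libraries, and the log2 fold change sets octanoate against vehicle. Also deposited are its standard error, a Wald score, and a p-value before and after adjustment. The table has 0 columns per library, so depth per library is unknown.

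The deposited adjusted p equalled Benjamini-Hochberg adjustment over 11185 regions whose mean was 63.8 or more (largest difference 2.55e-15) and was listed as 1 in the other 114801, which were treated as not tested. Of the 11185, 114 had an adjusted p under 0.05, all 114 higher. Region starts in the file count from 0 and were made 1-based. Genes, spans and start windows came from RefSeq tables of GRCh38.p14. Intervals are the log2 fold change ± 1.96 standard errors, and implied group levels come from the mean and the fold change with equal group sizes. Computation used Python 3.11.15, pandas 2.3.3, numpy 2.4.6 and scipy 1.17.1, and the adjustment and overlap code was tested on simulated data.

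The genes and lists were chosen with earlier results of these data known. All 10 genes were named, with the region at the start, the strongest region and each region tested or at an unadjusted p under 0.05. Context lists name up to 2 genes each by the smallest unadjusted p among tested regions. Other regions named were chosen after their values were seen. Alternatives varied the span, gene assignment, adjustment, threshold, centring and choice of regions.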

Additional observations from a re-analysis of the deposited data

How the results depend on the processing

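The count of 0 acyl-CoA synthetase regions past the adjusted p was also 0 in all 10 alternatives: spans extended by 0, 5 or 25 kb, regions assigned to the shortest overlapped or nearest gene, adjustment over all regions or those at or above the 25th percentile of the mean, thresholds of 0.1 and 0.01, and both centrings. With the 0 and 5 kb spans, the assignment and 0.01 this had to be so, since they only narrow the set or the threshold. At 0.1 it also had to be so, because the lowest adjusted p of a tested member in the deposited DESeq2 test was 0.375. Adjustment over more regions had little room to differ. The lowest unadjusted Wald p of a member was 0.0252, and 3.58% of all regions were higher at under 0.05. The 10 alternatives are therefore not 10 separate checks. The span and assignment sets held only 5 to 11 tested regions, and the wider adjustments covered 53 and 43 of the 53 regions. The count of 2 regions at an unadjusted p under 0.05 became 1 after centring on the tested median (1 higher) and 1 after centring on the median of all nuclear regions (1 lower). The median log2 fold change of 0.27 became 0.087 and 0.044 after these centrings, which subtract 1 constant, 0.14 in tested regions alone, 0.14 with the strongest region of each gene and 0.18 in regions with a mean at or above the median of all regions; the cause of the last 3 shifts was not tested. It stayed between 0.23 and 0.33 without each gene in turn. The start-region median became 0.087 after centring on the tested median, and taking 1 value per gene, added after the data were seen, gave 0.13. No paired analysis was possible because single libraries have no column in the table. Leaving out a replicate and count tests were not run for the same reason.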

Other observations

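Accessibility at the starts of cell type markers was looked up to set the gene starts in context. Of 4 melanocyte lineage genes with a start window, MITF and DCT had a listed region there and MLANA and TYR did not. Both undifferentiated melanoma genes with a window, AXL and EGFR, had one, with means of 61.7 and 73.9 normalized reads. At their starts, the values in the authors' deposited table were a log2 fold change of 0.12 at MITF (standard error 0.17, mean 168), -0.18 at DCT (standard error 0.38, mean 30.0), 0.35 at AXL (standard error 0.26) and 0.25 at EGFR (standard error 0.24). Of 1 keratinocyte gene (KRT5) and 2 immune genes (PTPRC and CD14) with a window, 0 had a listed region. An open start is not expression.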
